A study of Mus musculus with 12 samples.

Results

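The intestinal stem cell markers described here are 10 genes, Lgr5, Olfm4, Ascl2, Smoc2, Msi1, Cd44, Sox9, Lrig1, Tnfrsf19 and Slc12a2, read across 12 RNA-seq libraries of mouse small intestine. They were taken by symbol from the deposited expression table, which holds 17175 genes, and all 10 were present. The libraries fall into 4 groups of 3: wild type (WT) proximal, WT distal, Bmpr1a cKO proximal and Bmpr1a cKO distal. Bmpr1a is the gene of a receptor through which cells sense bone morphogenetic proteins (BMPs), and cKO stands for conditional knockout. The series asks how BMP signals received by the epithelium relate to the length of villi along the small intestine, and its title names the crosstalk with Wnt signals. The labels give no Cre driver, strain, age, sex or time of recombination, and do not say what the segments span, so what limits the cKO as a model cannot be stated further. Nor do they say that replicate libraries are separate animals, so p-values reflect the spread among these libraries alone, part of which may be technical.

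Crypts of the small intestine are renewed by columnar stem cells that sit between Paneth cells at the crypt base. Wnt ligands and R-spondins from the niche keep these cells dividing, Notch ligands on neighbouring cells hold back secretory fate, and BMP signals, strongest towards the villus, restrain stem cell character. Lgr5 is an R-spondin receptor and the usual marker of the crypt base stem cell. Ascl2 is a transcription factor of that cell and a Wnt target, Olfm4 is a secreted glycoprotein made there under Notch signals, Smoc2 is a secreted matrix protein enriched there, and Tnfrsf19 (Troy) is a receptor gene induced by Wnt. Msi1 encodes an RNA-binding protein, Sox9 a transcription factor of crypt base and Paneth cells, and Cd44 an adhesion receptor that immune and stromal cells make as well. Lrig1 encodes a membrane inhibitor of EGF receptor family signalling that marks stem and progenitor cells, and Slc12a2 the sodium, potassium and chloride cotransporter of crypt epithelium.

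Depth was 11242024 to 17722756 reads per library. The levels below are scaled read counts, in which each read count plus 1 is divided by a size factor of its library. Levels per kilobase and summed marker lists leave out the added 1. Bmpr1a itself did not separate the genotypes. Its scaled counts were 1029, 772 and 1019 in WT proximal and 911, 833 and 1087 in cKO proximal libraries. They were 438, 527 and 631 in WT distal and 511, 668 and 486 in cKO distal libraries. For cKO over WT the log2 fold change was 0.01 (95% interval -0.41 to 0.42) in the proximal and 0.06 (95% interval -0.35 to 0.48) in the distal segment. The counts cover the whole gene and cannot show the loss of an exon, so they do not check the labels, and cKO below means the libraries labelled cKO. Both cKO libraries numbered 1 had 0 reads of 4 Y-linked genes, where the other libraries had 1251 to 2390. By these reads sex, which the labels do not give, was not balanced between WT and cKO libraries. Mitochondrial genes took 17.4 to 26% of the reads in WT proximal, 22.3 to 37.7% in WT distal, 9.75 to 14.8% in cKO proximal and 9.95 to 27.7% in cKO distal libraries. Summed markers of 8 epithelial genes were high in every library, at 162141 to 530357 scaled counts.

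The 10 markers spanned a wide range of abundance. Per kilobase of exon, Olfm4 was the most abundant marker in WT proximal libraries (168 ± 148 scaled reads per kb, SD, n = 3), in WT distal libraries (159 ± 41.2) and in cKO distal libraries (143 ± 67.3). In cKO proximal libraries that place was taken by Lrig1 (90.0 ± 8.64 scaled reads per kb), with Olfm4 next (44.3 ± 24.4). Tnfrsf19 was the least abundant marker in each group, at 1.30 ± 0.388 scaled reads per kb in WT proximal libraries. Lgr5 was also scarce, at 2.78 ± 2.10 in WT proximal, 1.96 ± 0.593 in WT distal, 0.881 ± 0.277 in cKO proximal and 1.66 ± 0.479 in cKO distal libraries. Lgr5, Ascl2 and Tnfrsf19 therefore rest on few reads, 80, 46 and 17 in all over the 3 WT proximal libraries.

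**Figure D1:**
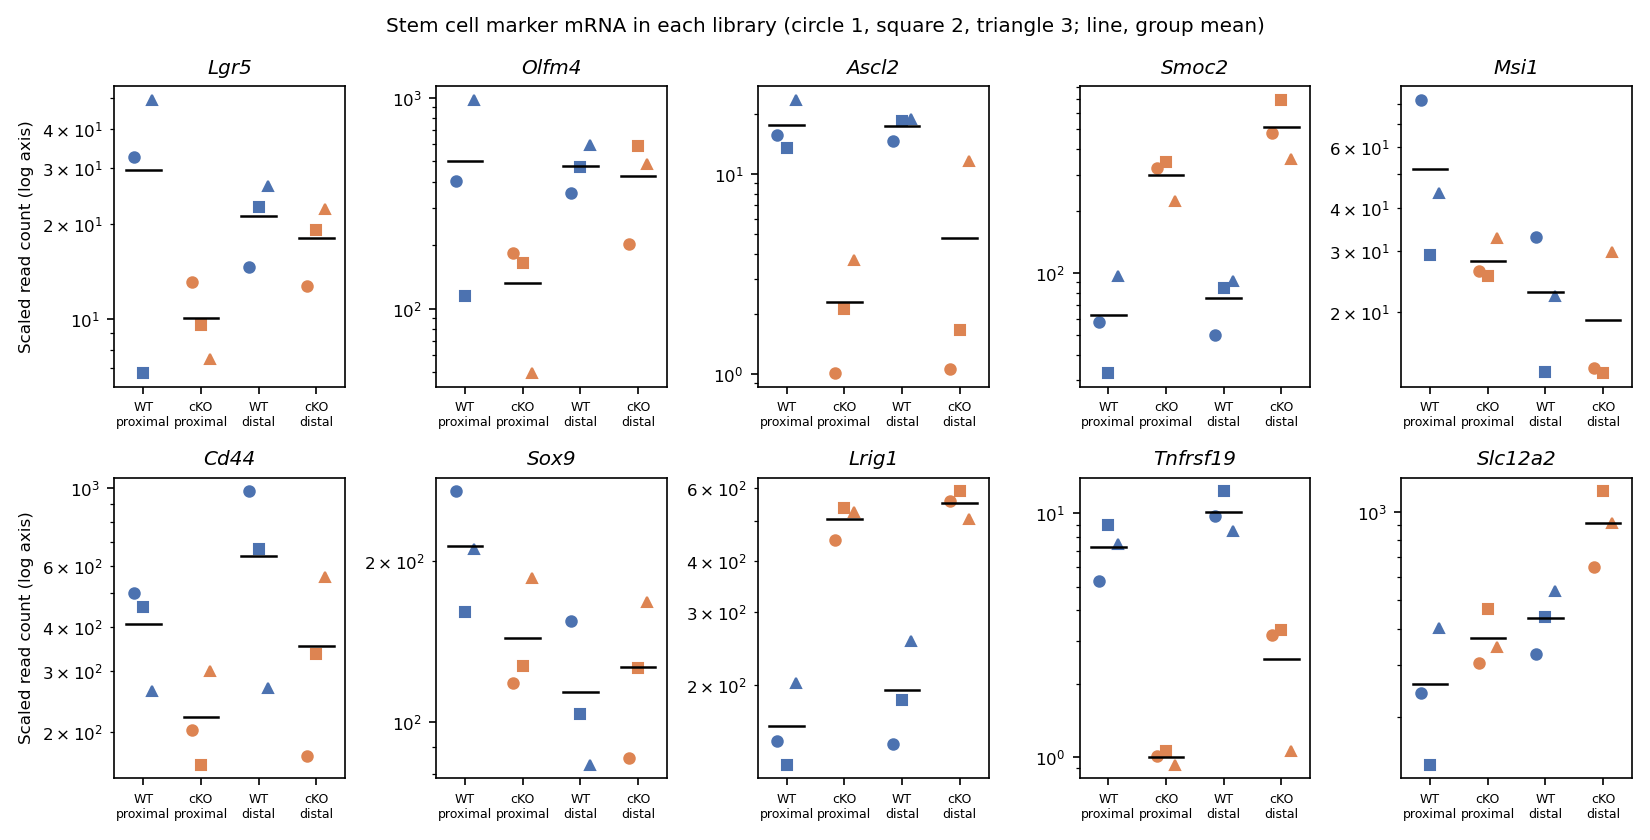
Scaled read count of each marker in each library, on a log axis that differs between panels. Symbols give the library number, blue WT and orange cKO, and the line is the mean of 3 libraries. Smoc2 and Lrig1 lie higher in all cKO libraries of both segments than in any WT library, and Ascl2 and Tnfrsf19 lie lower.

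The first question was whether the markers differed between cKO and WT in the proximal segment. They did not move as one group. Smoc2 and Lrig1 were higher in the cKO libraries, Ascl2 and Tnfrsf19 were lower, and the other 6 markers did not pass the test. Thus 4 of 10 markers passed (adjusted p under 0.05 by limma over all 17175 genes, 2 higher and 2 lower), where 8.26% of all genes did, 4.21% higher and 4.05% lower. The median log2 fold change of the markers was -0.80, beside 0.08 over all genes. Other scaling moved that background, to a median of -0.01 over all genes with TMM and -0.02 with edgeR, and the higher share of the genes called from 51% to 40.6% with TMM. The same 2 markers rose and 2 fell with TMM. In the distal segment 5 of 10 passed, 3 higher (Smoc2, Lrig1 and Slc12a2) and 2 lower (Ascl2 and Tnfrsf19), beside 25% of all genes, 13.3% higher and 11.7% lower. The median of the markers there was -0.23, beside 0.06 over all genes. The groups did not overlap for the same markers, 4 of 10 proximally, beside 33.9% of all genes (20.6% higher and 13.3% lower in cKO), and 5 of 10 distally, beside 34.8% (18.9% higher and 15.9% lower). The proximal count is near that share, so a lack of overlap alone does not set these markers apart there. These are bulk samples, in which fewer cells of a type and less RNA per cell cannot be told apart.

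Smoc2 showed the largest increase among the markers. The gene lies on mouse chromosome 17 from 14279506 to 14404790 on the plus strand (mm10, GENCODE M21). WT proximal libraries 1 to 3 held 57.9, 32.6 and 96.7 scaled counts, and cKO proximal libraries held 324, 348 and 223. WT distal libraries held 49.9, 84.3 and 91.7, and cKO distal libraries 480, 696 and 358. No cKO library overlapped a WT library in either segment. The mean was 4.78 times the WT mean in the proximal segment, with a log2 fold change of 2.35 (SE 0.37, adjusted p = 0.00258). It was 6.79 times the WT mean in the distal segment, with a log2 fold change of 2.74 (SE 0.37, adjusted p = 0.000178). With mitochondrial share as a covariate, the proximal call was lost (adjusted p = 0.0606) at a log2 fold change of 1.87. Mitochondrial share did not overlap between the WT and cKO proximal libraries, so that fit cannot fully separate it from genotype. The 6 proximal and the 6 distal fits that each left out 1 library all kept the call.

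Lrig1 rose by a similar amount in both segments and varied little among the cKO libraries. It lies on chromosome 6 from 94604529 to 94700158 on the minus strand. WT proximal libraries held 146, 128 and 202 scaled counts, and cKO proximal libraries 448, 537 and 526. WT distal libraries held 144, 184 and 255, and cKO distal libraries 557, 590 and 505. The groups stood apart in both segments, and the lowest cKO library was above the highest WT library of either segment. The log2 fold change was 1.68 (SE 0.23, adjusted p = 0.00086195) in the proximal and 1.54 (SE 0.23, adjusted p = 0.000303) in the distal segment. The call held in each of the alternative fits that were run. Of its exon bases, 2.58% are shared with another gene, and whether the counting used strand is not given in the sources used here.

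Ascl2 and Tnfrsf19 were the markers that fell. Ascl2, on chromosome 7 from 142966829 to 142969264 on the minus strand, had 14, 11 and 21 reads in WT proximal libraries and 0, 1 and 3 in cKO proximal libraries. It had 11, 17 and 17 reads in WT distal libraries and 0, 1 and 10 in cKO distal libraries. Every cKO library was below every WT library of its segment, and cKO distal library 3 stood nearest to WT. The log2 fold change was -2.55 (SE 0.60, adjusted p = 0.0206) in the proximal and -2.15 (SE 0.60, adjusted p = 0.0181) in the distal segment.

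The Ascl2 calls depended on single libraries. The proximal call was lost without WT library 2 (adjusted p = 0.0501), WT library 3 (0.0737), cKO library 1 (0.0753) or cKO library 2 (0.0645). The distal call was lost without WT library 2 (adjusted p = 0.0604), cKO library 1 (0.097) or cKO library 2 (0.0725), while without cKO library 3 the log2 fold change was -2.96 (adjusted p = 0.000762). The edgeR count test gave adjusted p = 0.0537 in the proximal and 0.108 in the distal segment, and DESeq2 gave 0.0772 in the distal segment. With mitochondrial share as a covariate these were 0.286 and 0.404, and without both cKO libraries numbered 1 they were 0.0641 and 0.107. The direction was the same in each of these fits.

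Tnfrsf19, on chromosome 14 from 60963875 to 61046490 on the minus strand, had 4, 7 and 6 reads in WT proximal libraries and 0 in all 3 cKO proximal libraries. Against a floor of 3 reads per library, that is at least 2.06-fold lower. In the distal segment it had 7, 11 and 7 reads in WT and 2, 3 and 0 in cKO libraries. The groups did not overlap in either segment. The test gave adjusted p = 0.0104 in the proximal and 0.00764 in the distal segment, where the log2 fold change was -1.73 (SE 0.41). The calls held in all 12 fits that left out 1 library, but the fitted size depends on the constant added before the log. In the distal segment it was -2.03 with 0.25 added and -0.79 with 8 added.

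Promoters are shown for 3 of the 4 markers that differed between genotypes in both segments, Lrig1, which rose, and Ascl2 and Tnfrsf19, which fell. Of the 10 markers, 5 matched the RefSeq promoter table (GRCm38.p6) by symbol, these 3 among them, Tnfrsf19 at 2 start sites. Smoc2 was not matched. Each is 250 bases before the start site, 5′ to 3′ on the minus strand, with matches to the searched motifs in capitals. The Lrig1 window is chr6:94700146-94700395, and its last bases lie within the GENCODE gene model. The Ascl2 window is chr7:142969265-142969514, and those of Tnfrsf19 are chr14:61046856-61047105 (upstream) and chr14:61037988-61038237 (downstream).
Lrig1: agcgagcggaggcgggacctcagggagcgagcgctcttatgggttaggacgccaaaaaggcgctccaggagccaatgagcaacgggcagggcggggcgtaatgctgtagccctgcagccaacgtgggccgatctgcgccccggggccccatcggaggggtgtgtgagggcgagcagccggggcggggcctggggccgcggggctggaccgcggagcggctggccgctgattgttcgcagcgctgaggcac
Ascl2: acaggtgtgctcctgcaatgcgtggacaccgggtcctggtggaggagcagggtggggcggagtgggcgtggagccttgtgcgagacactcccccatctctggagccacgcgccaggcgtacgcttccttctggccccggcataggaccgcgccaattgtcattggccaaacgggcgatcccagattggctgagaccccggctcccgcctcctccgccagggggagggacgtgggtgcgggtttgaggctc
Tnfrsf19, upstream start: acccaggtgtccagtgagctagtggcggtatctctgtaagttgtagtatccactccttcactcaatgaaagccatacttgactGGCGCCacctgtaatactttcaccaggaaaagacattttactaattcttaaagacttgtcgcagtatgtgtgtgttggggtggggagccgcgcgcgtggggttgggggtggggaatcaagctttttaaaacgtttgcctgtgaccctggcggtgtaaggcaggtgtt
Tnfrsf19, downstream start: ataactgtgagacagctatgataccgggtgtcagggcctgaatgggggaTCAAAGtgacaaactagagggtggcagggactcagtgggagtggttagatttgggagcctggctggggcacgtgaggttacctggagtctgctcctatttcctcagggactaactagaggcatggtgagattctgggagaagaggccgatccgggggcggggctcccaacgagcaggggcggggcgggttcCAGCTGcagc

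The search covered, on both strands, CTTTGA (reverse complement TCAAAG, the core of the TCF/LEF motif through which Wnt acts), GGCGCC (a palindrome bound by BMP SMADs), CAGCTG (an E-box) and TGGGAA (reverse complement TTCCCA, the RBPJ core through which Notch acts). The windows of Lrig1 and Ascl2 held none of these letters. The upstream Tnfrsf19 window held GGCGCC at position -167 from the start site. The downstream window held TCAAAG at -201 and CAGCTG at -10. Of all 32851 promoters of this length, 13.8% held the TCF/LEF core, 9.59% the SMAD palindrome, 13% the E-box and 21.6% the RBPJ core. Lrig1 and Ascl2 promoters were GC-rich, at 71.6% and 67.6%, where the median promoter had 52.4%. These matches are a description of letters in a window and do not show binding.

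**Figure D2:**
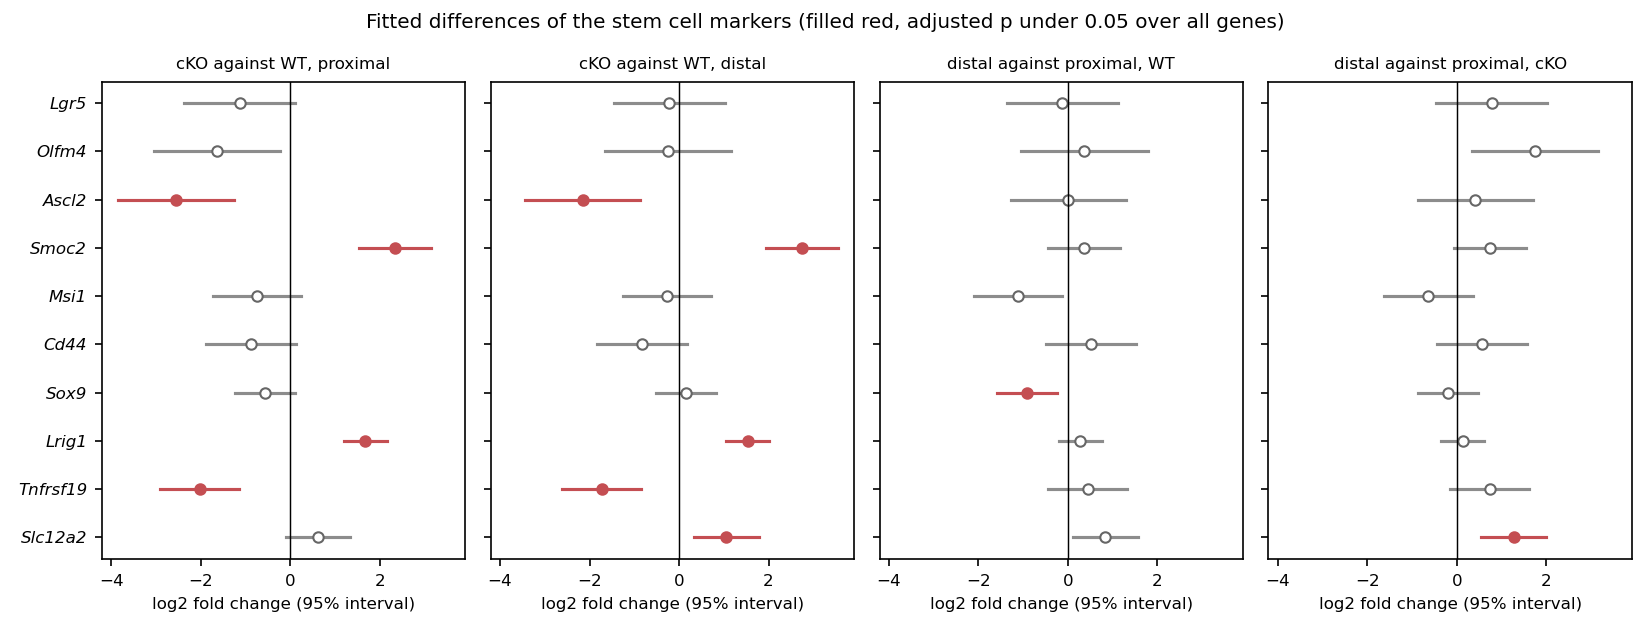
Fitted log2 fold change of each marker with its 95% interval in 4 comparisons. Filled red points passed the test (adjusted p under 0.05 over all genes). Smoc2 at 2.35 and Lrig1 at 1.68 lie to the right in the proximal genotype comparison, and Ascl2 at -2.55 to the left, with the same order in the distal one.

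Lgr5 and Olfm4, the markers most often used for the crypt base stem cell, passed the test in neither segment. Lgr5 lies on chromosome 10 from 115450311 to 115587780 on the minus strand. It had 32.6, 6.73 and 49.4 scaled counts in WT proximal libraries and 13.1, 9.54 and 7.46 in cKO proximal libraries. WT library 2 stood below all 3 cKO libraries, so the groups overlapped. The log2 fold change was -1.13 with a 95% interval of -2.37 to 0.11 (adjusted p = 0.243). In the distal segment the values were 14.6, 22.6 and 26.4 in WT and 12.7, 19.1 and 22.3 in cKO libraries. The distal log2 fold change was -0.22 (95% interval -1.46 to 1.02, adjusted p = 0.823). The distal interval reaches past 1 log2 unit on both sides, so these libraries do not settle a difference of that size in Lgr5.

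Olfm4 lies on chromosome 14 from 79984081 to 80023139 on the plus strand, and 5.17% of its exon bases are shared with another gene. Its scaled counts were 404, 114 and 978 in WT proximal libraries and 183, 164 and 49.4 in cKO proximal libraries. They were 352, 469 and 596 in WT distal and 203, 588 and 486 in cKO distal libraries. In the proximal segment the groups overlapped through WT library 2, which lay between the cKO values. The log2 fold change there was -1.63 (SE 0.66, adjusted p = 0.139), and in the distal segment -0.25 (95% interval -1.66 to 1.16, adjusted p = 0.819).

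The proximal calls of these markers depended on WT proximal library 2, and that of Olfm4 also on the test used. Without it the proximal log2 fold change was -1.93 for Lgr5 (adjusted p = 0.0368) and -2.45 for Olfm4 (adjusted p = 0.0354). DESeq2 on all 12 libraries gave -2.03 for Olfm4 (adjusted p = 0.0133). That library was the lowest of its group for 8 of the 10 markers, Tnfrsf19 and Cd44 being the exceptions. WT distal library 1 was the lowest of its group for 6 markers. The WT libraries numbered 3 were the highest for 6 markers in each segment, and these were the same genes, Lgr5, Olfm4, Ascl2, Smoc2, Lrig1 and Slc12a2.

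Slc12a2 separated the genotypes in the distal segment. Its scaled counts were 328, 438 and 539 in WT distal and 648, 1173 and 918 in cKO distal libraries, with no overlap. The log2 fold change was 1.06 (SE 0.34, adjusted p = 0.0339). The call was lost without WT library 1 (adjusted p = 0.133), WT library 2 (0.0831), cKO library 2 (0.129) or cKO library 3 (0.0657), and with mitochondrial share as covariate (0.232). In the proximal segment the values were 242, 138 and 401 in WT and 305, 465 and 348 in cKO libraries. Those groups overlapped, and the log2 fold change of 0.62 did not pass (SE 0.34, adjusted p = 0.268).

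Sox9, Msi1 and Cd44 passed in neither segment. The proximal log2 fold changes were -0.57 for Sox9, -0.74 for Msi1 and -0.87 for Cd44, with adjusted p of 0.281, 0.339 and 0.27. The distal values were 0.15, -0.26 and -0.82, with adjusted p of 0.774, 0.718 and 0.226. Groups overlapped for all 3 genes in both segments. Leaving out WT distal library 3 brought distal Cd44 to -1.35 (adjusted p = 0.0283).

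Cd44 varied with stromal markers. In WT proximal libraries 1 to 3 it held 501, 458 and 261 scaled counts, and the summed fibroblast markers held 19783, 9165 and 2951. In WT distal libraries it held 981, 669 and 268, and the fibroblast sum 23775, 15883 and 2041. The order of the 3 libraries was the same for both measures in each WT group. In cKO libraries Cd44 ranged from 161 to 299 proximally, beside fibroblast sums of 1953 to 3309. It ranged from 171 to 557 distally, beside sums of 5037 to 5438. The 3 genes closest to Cd44 over the 12 libraries were C1qtnf6 (r = 0.96), Dab2 (0.95) and Vim (0.95), the last encoding the mesenchymal filament protein vimentin. The part of stromal cells in the Cd44 values was not tested.

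The next question was how the markers differed between segments. In WT, 1 of 10 passed in the reported fit, which pairs no libraries. The count was 0 higher and 1 lower in the distal segment, beside 24.1% of all genes, 11.9% higher and 12.2% lower. That marker was Sox9. Its scaled counts were 270, 161 and 211 in WT proximal and 155, 104 and 83.3 in WT distal libraries. It was the 1 marker of 10 whose WT segments did not overlap, beside 38% of all genes, 19.2% higher and 18.8% lower distally. The log2 fold change was -0.92 (SE 0.31, adjusted p = 0.0466). The call was lost without WT proximal library 1 (adjusted p = 0.168) or 3 (0.0996), without WT distal library 2 (0.124) or 3 (0.143), and with TMM scaling (0.0626), DESeq2 (0.0656) or edgeR (0.0813). With the replicate block, which pairs libraries of one number between segments, Msi1 at -1.11 (adjusted p = 0.0251) and Slc12a2 at 0.84 (adjusted p = 0.0178) passed as well. Without the block their adjusted p were 0.0989 and 0.0882. Msi1 was lower in the distal library of all 3 WT pairs and Slc12a2 higher in all 3. That is not particular to them, since Sox9 was also lower in all 3, and Cd44 and Tnfrsf19 higher. The share of all genes with such agreement was not computed. Slc12a2 also passed without WT proximal library 3 (log2 fold change 1.22, adjusted p = 0.0157).

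In cKO libraries 1 of 10 markers passed between segments, beside 10.5% of all genes, 4.16% higher and 6.36% lower in the distal segment. Slc12a2 rose distally from 305, 465 and 348 to 648, 1173 and 918 scaled counts, with a log2 fold change of 1.27 (SE 0.34, adjusted p = 0.0269). The call was lost without cKO proximal library 1 (adjusted p = 0.113) or 3 (0.0836) and without cKO distal library 2 (0.107) or 3 (0.0713), and without both cKO libraries numbered 1 (0.0841). Olfm4 had a log2 fold change of 1.75 (SE 0.66, adjusted p = 0.112), with all 3 cKO distal libraries above all 3 cKO proximal ones. It passed with the replicate block (adjusted p = 0.0469) and with DESeq2 (adjusted p = 0.0356). The cKO groups also stood apart for Smoc2 and Slc12a2. By scaled values Tnfrsf19 makes 4 of 10 markers higher and 0 lower distally without overlap, beside 30.1% of all genes, 13.9% higher and 16.2% lower. In reads its cKO groups overlap at 0, since cKO distal library 3 and all 3 cKO proximal libraries had 0 reads and differ only in size factor, which leaves 3 markers.

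Whether the genotype difference itself changed between segments was tested as an interaction. None of the 10 markers passed, beside 0.576% of all genes called by limma, 0.175% with a higher and 0.402% with a lower value. At an unadjusted limma p under 0.05 there were 0 of the 10 markers, beside 2265 of all 17175 genes. edgeR and DESeq2 also called 0 of the 10. The smallest unadjusted p was 0.13, for Sox9, at a difference of 0.71 (95% interval -0.24 to 1.66). For Olfm4 the difference was 1.38 (95% interval -0.61 to 3.38), and for Lgr5 0.91 (95% interval -0.84 to 2.67). Both intervals are wide and include 0. These libraries do not settle whether the genotype effects on Lgr5 or Olfm4 differ between segments. For Lrig1 the difference was -0.15 (95% interval -0.83 to 0.54).

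Ordered by group mean, most neighbouring groups of a marker overlapped. Smoc2 was highest in cKO distal, then cKO proximal, WT distal and WT proximal libraries, and only the 2 WT groups overlapped. Lrig1 had the same order, with overlap within each genotype. Ascl2 ran from WT proximal through WT distal and cKO distal to cKO proximal, and only the step between genotypes was free of overlap. Tnfrsf19 ran from WT distal through WT proximal and cKO distal to cKO proximal. Its WT groups overlapped, as did its cKO groups in reads, at 0. For Lgr5, Msi1, Cd44 and Sox9 every neighbouring pair of groups overlapped. Olfm4 had its 1 clear step between cKO distal and cKO proximal, and Slc12a2 between cKO distal and WT distal libraries.

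The balance between markers within a library was compared as a ratio of read counts, which needs no size factor. These ratios were chosen after the values were seen and carry no test. Smoc2 reads were 0.0979 to 0.277 of Olfm4 reads in WT proximal and 0.139 to 0.178 in WT distal libraries. In cKO they were 1.78 to 4.58 proximally and 0.737 to 2.37 distally. Smoc2 reads were 1.8 to 5.6 times those of Lgr5 in WT proximal and 3.58 to 3.86 times in WT distal libraries, against 26.7 to 40.9 and 16.8 to 41.1 times in cKO. The ratios of Smoc2 to either gene did not overlap between genotypes. The ratio of Lgr5 to Olfm4 overlapped, at 0.0495 to 0.0783 in WT proximal, 0.0382 to 0.0462 in WT distal, 0.0519 to 0.135 in cKO proximal and 0.0311 to 0.0576 in cKO distal libraries.

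**Figure D3:**
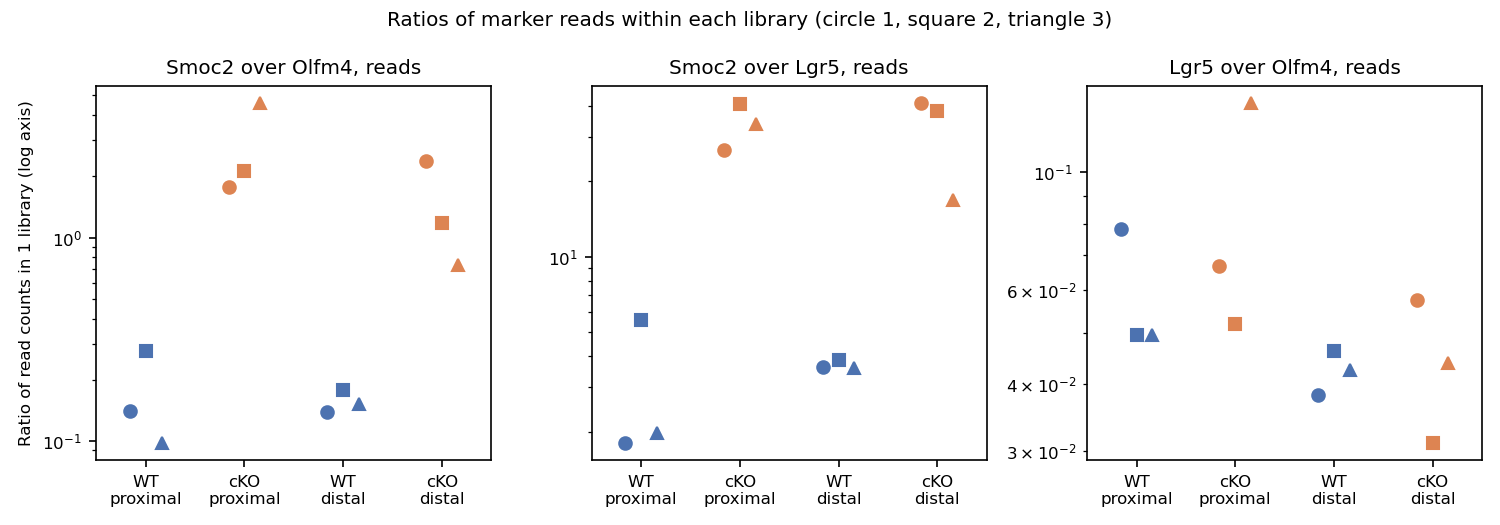
Ratio of read counts of 2 markers within each library, on log axes, by group and library number. Smoc2 over Olfm4 and Smoc2 over Lgr5 lie higher in every cKO library than in any WT library, at 0.737 or more against 0.277 or less for the first, while Lgr5 over Olfm4 overlaps between genotypes.

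Lgr5 and Olfm4 varied together over the 12 libraries. Among 10714 genes with a mean scaled count of at least 50, the gene most like Lgr5 was Olfm4 (Pearson r of log2 values 0.90, 12 libraries), followed by Fance and Cep295 (0.75 each). The genes most like Olfm4 were Tsr2 (0.82), Trim23 (0.81) and Fance (0.80). Lgr5 lay below the abundance limit and was not searched as a match. The genes most like Ascl2 were Rab3il1 (0.96), Gabbr1 (0.95) and Cyp4f18 (0.94), those most like Sox9 were Peg3 (0.86), Bmp1 and Sez6l2 (0.82 each), and those most like Slc12a2 were Pwwp2a (0.93), Smad5 (0.92) and Clca3b (0.91). The libraries share their groups, so these values describe group differences and library differences at once.

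Other genes of the crypt base stem cell signature were mixed as well. Of 22 measured, 4 rose and 2 fell in cKO proximal libraries, where 4.21% of all genes were higher and 4.05% lower. In cKO distal libraries 5 rose and 3 fell, where 13.3% of all genes were higher and 11.7% lower. The distal lower count is near that share. Proximally the balance depended on the fit, with 3 higher and 5 lower under TMM scaling or edgeR, 4 and 6 under DESeq2, and 4 and 4 with the replicate block. The median log2 fold changes were 0.09 and 0.04, beside 0.08 and 0.06 over all genes. Ephb2, the ephrin receptor that positions crypt cells, had 148 ± 36.1 scaled counts in WT proximal and 478 ± 89.9 in cKO proximal libraries (SD, n = 3), a log2 fold change of 1.70 (SE 0.22, adjusted p = 0.000676). Distally it had 200 ± 39.6 and 664 ± 41.0 scaled counts (1.75, SE 0.22, adjusted p = 9.92e-05). Aqp4, a water channel gene, had 16.8 ± 11.8 and 177 ± 42.9 scaled counts proximally and 48.1 ± 12.9 and 244 ± 49.0 distally, with log2 fold changes of 3.60 (adjusted p = 0.000832) and 2.34 (adjusted p = 0.0032). Without WT proximal library 2, proximal Aqp4 was at 2.90 (adjusted p = 0.000715).

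Axin2, a feedback inhibitor and the standard readout of Wnt signalling, fell in both segments. It had 291 ± 83.9 scaled counts in WT proximal and 52.9 ± 5.99 in cKO proximal libraries, a log2 fold change of -2.40 (SE 0.36, adjusted p = 0.00181). Distally it had 530 ± 124 and 159 ± 101 scaled counts (-1.88, SE 0.36, adjusted p = 0.00215). Phgdh, an enzyme of serine synthesis, fell distally from 311 ± 45.6 to 103 ± 66.5 scaled counts (-1.75, adjusted p = 0.00334). Igfbp4, which binds insulin-like growth factors, was at -1.57 proximally (adjusted p = 0.0217), a call that held without WT library 3 and was lost without any other single library of the comparison (adjusted p 0.0605 to 0.0766). With mitochondrial share as a covariate, 3 of the 22 rose and 1 fell proximally and 1 rose and 0 fell distally, and the distal calls of Axin2 (adjusted p = 0.0929), Aqp4 (0.0752) and Phgdh (0.129) were lost. Without both cKO libraries numbered 1, 2 rose and 1 fell proximally and 3 rose and 2 fell distally.

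**Figure D4:**
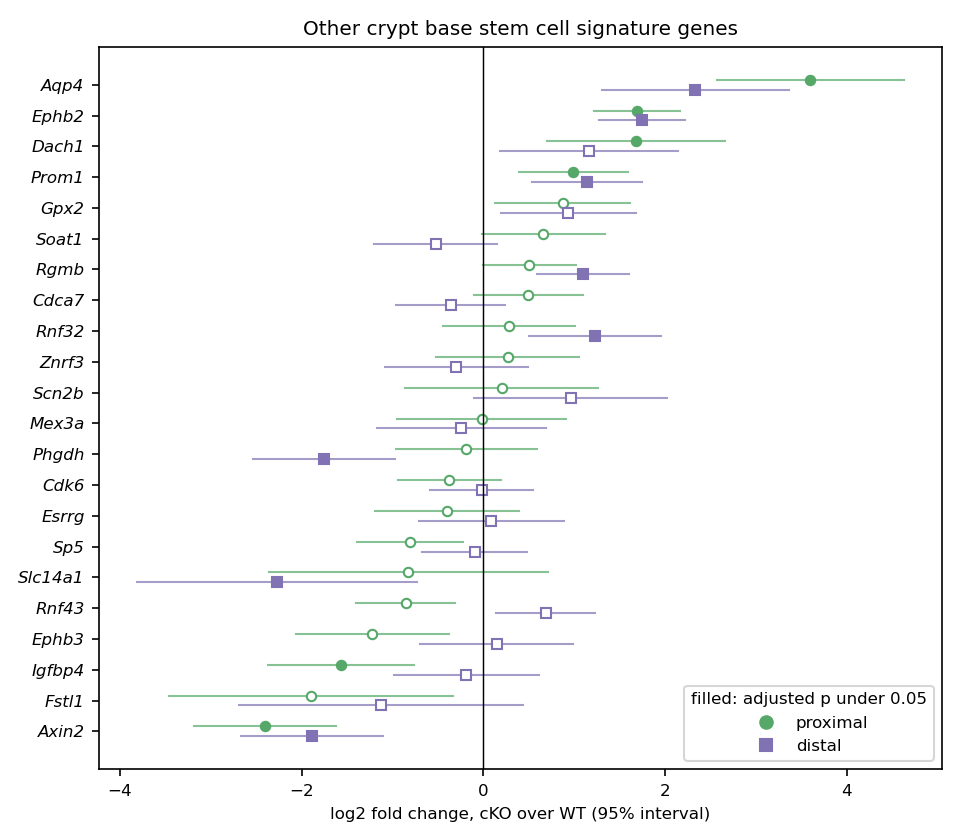
Log2 fold change of cKO over WT with its 95% interval for 22 other signature genes, green circles proximal and purple squares distal, filled where the adjusted p was under 0.05. Aqp4 (3.60 proximal) and Ephb2 (1.70 proximal) lie at one end and Axin2 (-2.40 proximal) at the other.

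Wnt feedback and target genes were counted next, a list that shares Axin2, Sp5, Rnf43 and Znrf3 with the signature. Of 10 measured, 0 rose and 1 fell (Axin2) in cKO proximal libraries, where 4.05% of all genes were lower. In cKO distal libraries 0 rose and 3 fell, where 11.7% of all genes were lower. The medians were -0.83 and -0.34. With TMM scaling, 4 fell proximally, where DESeq2 called 5, edgeR 4 and the replicate block 2. Distally Tcf7 and Lef1, which encode DNA-binding partners of beta-catenin and are also made by T cells, fell by log2 fold changes of -2.95 (adjusted p = 0.00012) and -3.13 (adjusted p = 0.0021). The mitochondrial covariate left 1 of the 3 distal calls, ending that of Lef1 (adjusted p = 0.0934), and without cKO distal library 2 Lef1 was at -2.35 (adjusted p = 0.00599). T cell markers summed to 1137 to 2477 scaled counts in WT distal and 688 to 1090 in cKO distal libraries, and their part in these values was not tested.

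No cell division gene passed between genotypes in the proximal segment. Of 20 measured, 0 passed with limma, edgeR or DESeq2, and 2 had an unadjusted limma p under 0.05, beside 4324 of all 17175 genes. In the distal segment 0 rose and 14 fell, where 11.7% of all genes were lower, with a median of -1.27 beside 0.06 over all genes. Mcm2, a subunit of the replicative helicase, had 627 ± 149 scaled counts in WT distal and 182 ± 65.3 in cKO distal libraries (log2 fold change -1.82, adjusted p = 0.000686). Uhrf1, which maintains DNA methylation after replication, had 617 ± 102 and 190 ± 60.2 scaled counts (-1.74, adjusted p = 0.000383). With the mitochondrial covariate 6 fell distally, and without both cKO libraries numbered 1, 9 fell. In the interaction test 0 of the 20 passed with limma, 0 with edgeR, 3 with DESeq2 and 1 with the replicate block, all lower. Of the 20, 13 had an unadjusted limma p under 0.05, beside 2265 of all 17175 genes, and the median difference between segments was -1.01. In WT, 18 of the 20 rose from the proximal to the distal segment, where 11.9% of all genes did, with Top2a at 2.11 (adjusted p = 8.07e-05). The B cell marker sum was 474 to 2966 scaled counts in WT proximal, 5896 to 18499 in WT distal, 186 to 343 in cKO proximal and 119 to 437 in cKO distal libraries. It moved with the cell division genes across the distal genotypes and the WT segments, and its part in them was not tested.

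Reserve and injury-induced stem cell genes numbered 5 measured, and their counts stand beside 8.26% of all genes called proximally and 25% distally. In cKO proximal libraries 1 rose and 1 fell, Krt19 at 1.56 (adjusted p = 0.0195) and Clu at -1.78 (adjusted p = 0.0337). The Krt19 call was lost without WT library 1 or 2 or cKO library 1 or 2 (adjusted p 0.051 to 0.0783). The Clu call was lost without any single library other than WT library 3 (adjusted p 0.0573 to 0.104). With mitochondrial share as a covariate, or without both cKO libraries numbered 1, 0 of the 5 passed proximally. Distally 2 rose and 1 fell. Hopx, a homeodomain cofactor used as a reserve stem cell marker, rose from 120 ± 25.9 to 263 ± 79.1 scaled counts (1.11, adjusted p = 0.00447). It fell from proximal to distal in WT (-2.17, adjusted p = 2.87e-05) and in cKO (-1.12, adjusted p = 0.00795). Clu, a gene of the injury-induced revival state, fell distally from 1302 ± 572 to 322 ± 70.7 scaled counts (-1.92, adjusted p = 0.00872). Without both cKO libraries numbered 1, the distal Clu call was lost at -1.75 (adjusted p = 0.0582), as was that of Hopx between the cKO segments at -1.03 (adjusted p = 0.0968). The mitochondrial covariate also ended the distal Clu call (adjusted p = 0.121), leaving 1 higher and 0 lower.

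Niche factors numbered 8 measured. Their counts between genotypes, and those of the Paneth cell genes, stand beside 8.26% of all genes called proximally and 25% distally. In cKO proximal libraries 0 rose and 1 fell, the R-spondin gene Rspo1 at -2.31 (adjusted p = 0.0321), a call on 16.7 ± 8.65 scaled counts in WT. It was lost without WT library 1 or 2 or cKO library 2 or 3 (adjusted p 0.0603 to 0.128), with edgeR and with the mitochondrial covariate. DESeq2 called 2 lower proximally, and in the distal segment edgeR and DESeq2 called 0 lower. Distally 2 rose and 1 fell, and 1 rose and 0 fell with the mitochondrial covariate or without both cKO libraries numbered 1. Dll1, a Notch ligand gene, rose from 171 ± 78.6 to 699 ± 176 scaled counts (2.09, SE 0.31, adjusted p = 0.000322). In WT it fell from proximal to distal (-1.49, adjusted p = 0.00347). Of 9 Paneth cell genes, 0 rose and 1 fell in each cKO comparison, the antimicrobial ribonuclease gene Ang4. The log2 fold change was above 0 for 0 of the 9 in each segment. Its median was -1.20 proximally and -1.30 distally, beside 0.08 and 0.06 over all genes, and -0.51 and -0.71 with the mitochondrial covariate. With the mitochondrial covariate or without both cKO libraries numbered 1, 0 passed in either, and edgeR called 0 proximally. Distally 3 fell with the replicate block and 2 with DESeq2 or edgeR. From proximal to distal, 6 rose in WT and 4 in cKO libraries, beside 11.9% and 4.16% of all genes. Ang4 rose by 3.29 (adjusted p = 0.000629) and 3.40 (adjusted p = 0.000828). With the replicate block 9 of 9 rose in both genotypes, and DESeq2 called 7 in WT and 9 in cKO libraries. Paneth genes of the defensin and Mptx families share sequence, so their counts are uncertain. Without cKO distal library 3, Ang4 between the cKO segments was at 2.73 (adjusted p = 0.00229).

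Between segments, 11.9% of all genes were higher and 12.2% lower distally in WT, and 4.16% higher and 6.36% lower in cKO libraries. Beside these shares, 4 of the 22 signature genes rose and 3 fell in WT, and 3 rose and 1 fell in cKO libraries. The cKO count was 7 higher and 3 lower with the replicate block and 7 higher and 1 lower with DESeq2. Sp5, a Wnt-induced transcription factor gene, fell distally from 1023 ± 14.0 to 103 ± 20.8 scaled counts in WT (log2 fold change -3.32, adjusted p = 1.64e-06). It fell from 593 ± 119 to 100 ± 37.2 in cKO libraries (-2.61, adjusted p = 2.32e-05). Rnf43, a ubiquitin ligase that removes Wnt receptors, fell distally in WT from 1197 ± 206 to 250 ± 86.4 scaled counts (-2.30, adjusted p = 2.95e-05). Phgdh and Cdca7, a gene of replicating cells, rose distally in WT by 1.70 (adjusted p = 0.00406) and 1.17 (adjusted p = 0.00796). Igfbp4 rose distally in cKO libraries by 1.88 (adjusted p = 0.00472). Without both cKO libraries numbered 1 it was at 1.86 and did not pass (adjusted p = 0.0538). Of the 10 Wnt genes 4 rose and 3 fell in WT and 2 rose and 1 fell in cKO libraries. Of the 5 reserve genes 0 rose and 1 fell (Hopx) in each. Of the 8 niche genes 0 rose and 1 fell in WT, near the share of all genes, and 2 rose in cKO libraries. Of the 20 division genes 7 rose and 1 fell in cKO libraries. With the replicate block the reserve counts were 2 higher and 1 lower in WT and 1 and 1 in cKO libraries, the niche counts in WT 1 and 1, and the Wnt counts in cKO libraries 2 and 2.

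Markers of other cell types were counted between genotypes in the same way. Over all genes, 4.21% were higher and 4.05% lower proximally, and 13.3% higher and 11.7% lower distally. Of 7 myeloid markers, 5 fell in cKO proximal and 4 in cKO distal libraries, with sums of 4198 to 8124 scaled counts in WT and 1331 to 3001 in cKO libraries. Of 7 B cell markers, 2 fell proximally and 7 distally. Of 8 fibroblast markers, 1 fell in each segment, which distally is near the share of all genes, and of 7 T cell markers, 1 and 3. Of 5 endothelial markers, 1 rose and 1 fell in each segment, and of 5 smooth muscle markers and 2 glial and neuronal markers 0 passed in either. Of 8 enterocyte and epithelial markers, 0 passed proximally and 3 rose distally, and of 7 secretory markers, 1 fell proximally and 0 passed distally. The share of these cells in the marker differences was not tested.

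**Figure D5:**
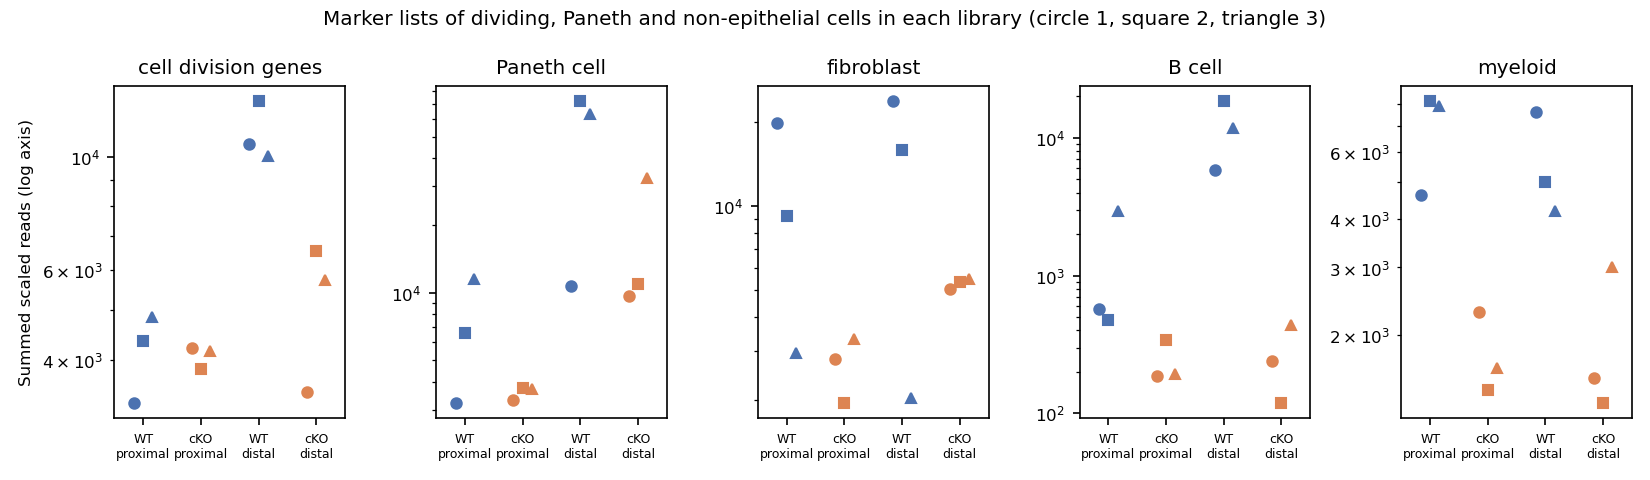
Summed scaled counts of marker lists in each library, on log axes that differ between panels, by group and library number. Cell division and B cell sums are high in WT distal libraries (B cell 5896 to 18499), and myeloid sums are lower in cKO libraries (1331 to 3001) than in WT libraries (4198 to 8124).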

How the data were processed

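The table analysed was deposited by the authors and covers 17175 genes in 12 libraries of mouse small intestine, with 0 sample columns left unused. Per the labels' protocols, Trizol was used for total RNA and NuGEN's Ovation kit for cDNA. Per the submitters' processing notes, mm10, STAR and DESeq2 1.28.1 were used. The values deposited by the authors are a signal, scaled in each library. All 206100 are whole multiples of a step of their column within 0.001 steps, and each was taken as (reads + 1) divided by a size factor, so whole reads could be recovered. The deposited log2 fold change, its standard error, the Wald score and the p-value of the authors' own comparison were not used.

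The test design allowed for counts or scaled values. As the values were scaled, limma 3.58.1 (R 4.3.3, empirical Bayes with a trend) was fitted to log2(value + 1) of all 12 libraries at once, with a mean for each of the 4 groups. Benjamini-Hochberg adjustment was over all 17175 genes, and adjusted p under 0.05 was called. This scale understates the fold change of genes with few reads. The recovered reads, with edgeR 4.0.16 and DESeq2 1.42.0, served as alternatives. The script was tested on simulated data. Other alternatives were TMM scaling, pseudocounts of 0.25 and 8, a mean value of at least 10, the replicate block, the mitochondrial share as a covariate, leaving out each library, and leaving out both cKO libraries numbered 1.

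Exon lengths and positions come from GENCODE M21, where 17158 gene identifiers were found. A group at 0 reads was set against a floor of 3 reads per library. Named were all 10 markers, up to 4 genes with the smallest p from each other list (not all of them are printed), and, for 6 markers, the 3 most correlated genes. The members, lists and tests were chosen with earlier results of these data known. The comparisons of cKO with WT share libraries with those between segments, so they are not independent of each other.

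Numbers 1 to 3 pair libraries between segments, since the labels give both segments of a genotype the same sample names. Deviations from the group means, over 10969 genes, correlated at 0.368, 0.295 and 0.343 for WT numbers 1 to 3 and at 0.302, 0.349 and 0.475 for cKO numbers. Between genotypes the same numbers correlated at -0.202 to 0.109. The reported fit took no pairs in any comparison, so its segment and interaction results leave the pairing between segments out. Only the replicate block used that pairing. For cKO against WT, the replicate block gave libraries of the same number a shared term across all 4 groups. Its counts for those comparisons carry that limit.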

Additional observations from a re-analysis of the deposited data

How the results depend on the processing

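The number of markers called moved with some settings. With the mitochondrial share as a covariate, 2 markers passed proximally and 3 distally between genotypes, where all genes called were 292 and 1356, against 1418 and 4297 in the reported fit. That share did not overlap between genotypes proximally, so there the covariate and genotype cannot be fully separated. DESeq2 called 2304 genes proximally, 2762 between the cKO segments and 594 for the interaction. edgeR called 59 and a pseudocount of 8 called 180 for the interaction, against 99. Between the WT segments, TMM scaling, DESeq2 and edgeR each called 0 markers. Between the cKO segments, DESeq2 called 2. The replicate block gave 3 markers between the WT segments, 2 between the cKO segments and 460 interaction genes, and changed no other call of a marker. Without both cKO libraries numbered 1, genes called were 766 proximally, 2160 distally, 862 between the cKO segments and 2 for the interaction, and 0 markers passed between the cKO segments. Leaving out 1 library at a time gave 580 to 1360 genes and 3 to 5 markers proximally, 2466 to 4954 genes and 3 to 6 markers distally, 2741 to 3924 genes and 0 to 1 markers between the WT segments, 1031 to 1545 genes and 0 to 1 markers between the cKO segments, and 7 to 266 genes and 0 markers for the interaction. Among genes called proximally, 51% were higher in the reported fit and 40.6% with TMM scaling, and the median of all genes moved from 0.08 to -0.01. Distally 53% were higher, and 31.3% with the mitochondrial covariate. List counts and single list genes under the same settings were computed after the data were seen. The filter on a mean of at least 10 removes Tnfrsf19, which then has no value. Of the markers, Lrig1 passed in both genotype comparisons in all settings and Smoc2 in all but 1. Lgr5, Ascl2 and Tnfrsf19 rest on few reads, 80, 46 and 17 over the WT proximal libraries.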
